A study of Drosophila melanogaster with 4 samples.

Results

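Unplaced sequence U is the record of release 5 of the Drosophila melanogaster genome that strings together scaffolds which could not be assigned to a chromosome. Of the 11471 enriched regions (clusters) in the authors' list for the replicate set, 1082 (9.43%) lay on U and are described here. They were chosen by the name of the sequence alone. The same sequence held 527 clusters in the list of replicate 1 and 545 in that of replicate 2. None of the 5 depleted regions of the replicate-set list lay on U.

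The clusters come from chromatin immunoprecipitation sequencing (ChIP-seq) of Su(var)3-7 with the antibody Q3448. Nuclei came from third-instar larvae of the strain Oregon-R, genotype wild type. The study held 2 immunoprecipitated libraries, and the authors set each against the input library of the same number, 2 input libraries in all. The labels do not say whether the replicates were grown apart, so an SD over 2 of them may be technical. With 2 paired libraries the smallest two-sided p of an exact permutation test is 0.5. No test was therefore made, and the comparisons below are descriptions with the value of each replicate. The lists hold no read counts, so the depth behind each value is unknown. Each cluster carries 1 value, the authors' enrichment of ChIP over input, read here as log2.

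Su(var)3-7 has several zinc fingers, belongs to heterochromatin and binds HP1, and its loss weakens the silencing of genes moved next to heterochromatin (position-effect variegation). Heterochromatin is rich in repeats and transposable elements, which makes it hard to assemble, so much unplaced fly sequence is thought to derive from it. Reads from repeats fit many places, and how the authors placed such reads is not given in the sources used here. Because U is a string of scaffolds, neighbouring positions on it need not be neighbours on a chromosome. No sequence or gene annotation of U was used here.

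Clusters on U had high values and covered a modest share of the sequence. They lay over 16.1% of its 10.05 Mb in replicate 1 and 17.3% in replicate 2 (mean 16.7% ± 0.82, SD, n = 2). On the 6 heterochromatin scaffolds (2LHet, 2RHet, 3LHet, 3RHet, XHet and YHet) cover was 48.9% and 53.4%, and on the 4 arms of the large autosomes (2L, 3L, 2R and 3R) it was 11.7% and 10.3%. Cover of U was thus 0.33-fold ± 0.0046 that of the heterochromatin scaffolds and 1.53-fold ± 0.22 that of the large autosome arms (SD, n = 2). Both replicates placed U between these classes. In the replicate-set list 30.6% of U was covered. With clusters at or above each list's median value alone, the fold over the large autosome arms was 2.61. A rise was built into that filter, because it acts on the value itself. The list medians, 0.70 and 0.73, lay above the medians of the large autosome arms and below the lower quartiles of U. It thus left out most clusters of the arms and few of U.

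In the strength of the clusters the order was different. The median log2 value on U was 1.29 in replicate 1 and 1.33 in replicate 2, against 1.17 and 1.26 on the heterochromatin scaffolds and 0.62 and 0.64 on the large autosome arms. The median on U exceeded that of the heterochromatin scaffolds by 0.10 ± 0.03 and that of the large autosome arms by 0.68 ± 0.02 on the log2 scale (SD, n = 2). Among clusters at or above each list's median value the second difference was 0.41. The interquartile range of the U values ran from 0.96 to 1.64 in replicate 1 and from 1.03 to 1.74 in replicate 2. U clusters were also narrower than those of the heterochromatin scaffolds, with a median width of 2292 bp and 2273 bp against 3262 bp and 3474 bp. On the large autosome arms the median width was 2017 bp and 2009 bp.

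**Figure D1:**
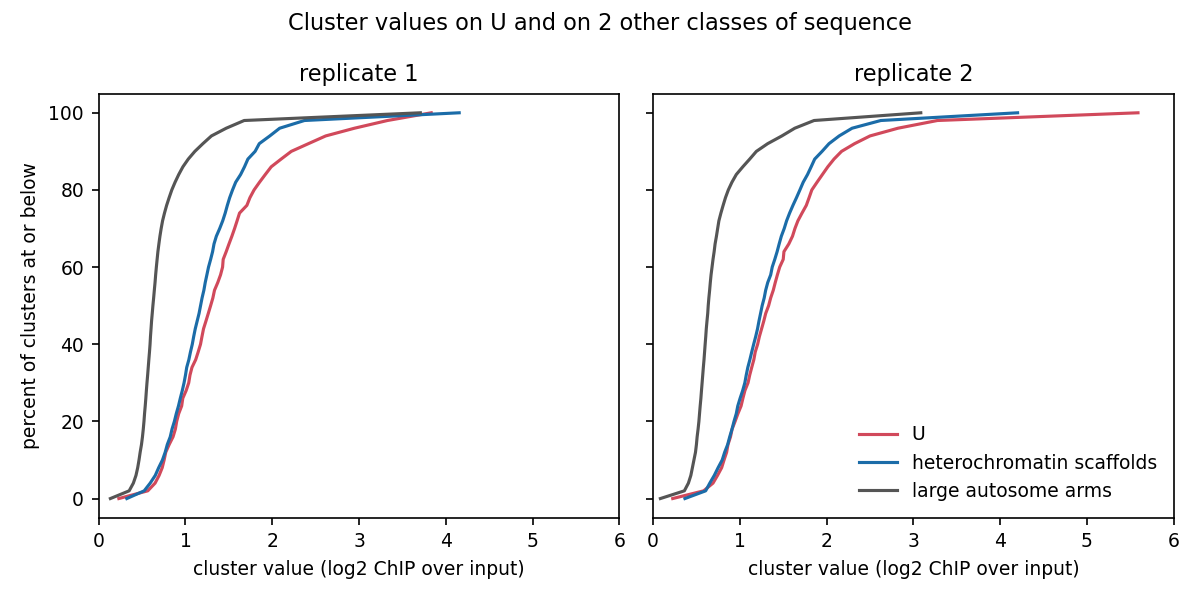
Percent of clusters (vertical axis) at or below a given log2 value of ChIP over input (horizontal axis), in each replicate, on U, on the 6 heterochromatin scaffolds and on the 4 large autosome arms. At the median the U curve lies right of both others, at 1.29 in replicate 1 and 1.33 in replicate 2.

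High values were frequent on U. Clusters with a log2 value of 2 or more, an enrichment of at least 4-fold, made up 13.7% of the U clusters in replicate 1 (72 of 527) and 14.5% in replicate 2 (79 of 545). Over each whole list the share was 2.54% in replicate 1 and 3.79% in replicate 2, U included. On the heterochromatin scaffolds it was 5.27% and 8.83%, so high values were also more frequent there than over the list. In the replicate-set list it was 17.2% of the U clusters (186 of 1082), against 2.67% of the list and 1.16% of the clusters outside U. For the heterochromatin scaffolds of that list it was 6.43%. The count of 186 was 56 without clusters under 2 kb, 59 without values used by 3 or more clusters, and 33 among clusters found in both replicates. Each of these filters keeps only part of the clusters, so a lower count was built in. Among clusters found in both replicates, 33 of 363 on U were at 2 or more (9.09%, against 17.2% of all U clusters). Outside U it was 41 of 3156, and on the heterochromatin scaffolds 21 of 607 (3.46%). The matching shares under the other filters were not worked out. U supplied 60.8% of the 306 clusters of the replicate-set list at 2 or more, 75.5% of the 53 at 3 or more, and 72.7% of the 22 at 3.5 or more. In the replicate lists U supplied 47.4% of those at 2 or more in replicate 1 and 37.1% in replicate 2. Among the top 100 values of the replicate-set list, 69 lay on U, 19 on the heterochromatin scaffolds and 9 on the large autosome arms.

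Wide domains were few. Clusters of 10 kb or more made up 1.71% of the U clusters in replicate 1 and 2.02% in replicate 2, against 9.58% and 13.5% on the heterochromatin scaffolds and 3.43% and 3.81% on the large autosome arms. In the replicate-set list 27 of the 1082 U clusters reached 10 kb (2.50%, against 3.75% of the list).

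Cover was uneven along the sequence. In consecutive windows of 1 Mb, the most covered was the second, from 1000001 to 2000000, at 37.6% in replicate 1 and 43.0% in replicate 2. The first window followed at 26.8% and 31.5%. Window 3 had 19.0% and 19.8%, and window 4 had 16.4% and 17.1%. Among full windows the least covered was the ninth, from 8000001 to 9000000, at 6.07% and 5.03%. The last window, 49037 bp long, had 4.80% and 5.10% under 1 cluster in each replicate.

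The values were higher in the later and less covered part of U. Window by window the values in the replicates did not follow cover, since window 2, the most covered, had the highest median of windows 1 to 4. In the replicate-set list window 4 had the highest of these medians, 1.14, and window 2 had 1.08. Windows 1 to 4 had median log2 values from 1.03 to 1.20 in replicate 1 and from 1.12 to 1.34 in replicate 2. Windows 5 to 9 had medians from 1.41 to 1.60 and from 1.39 to 1.58, and window 10 had 1.79 and 1.86. A dividing line at 4 Mb was chosen after the values had been seen. The 4 Mb at the start of U were 25.0% and 27.9% covered with median values of 1.14 and 1.19. The rest of U was 10.3% covered in both replicates with median values of 1.50 and 1.57. Clusters at 2 or more made up 24.1% and 23.7% of the clusters of the rest of U, against 5.69% and 7.89% of those at the start. Of the 27 members of 10 kb or more, 23 lay in the start and 13 of these in window 2.

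**Figure D2:**
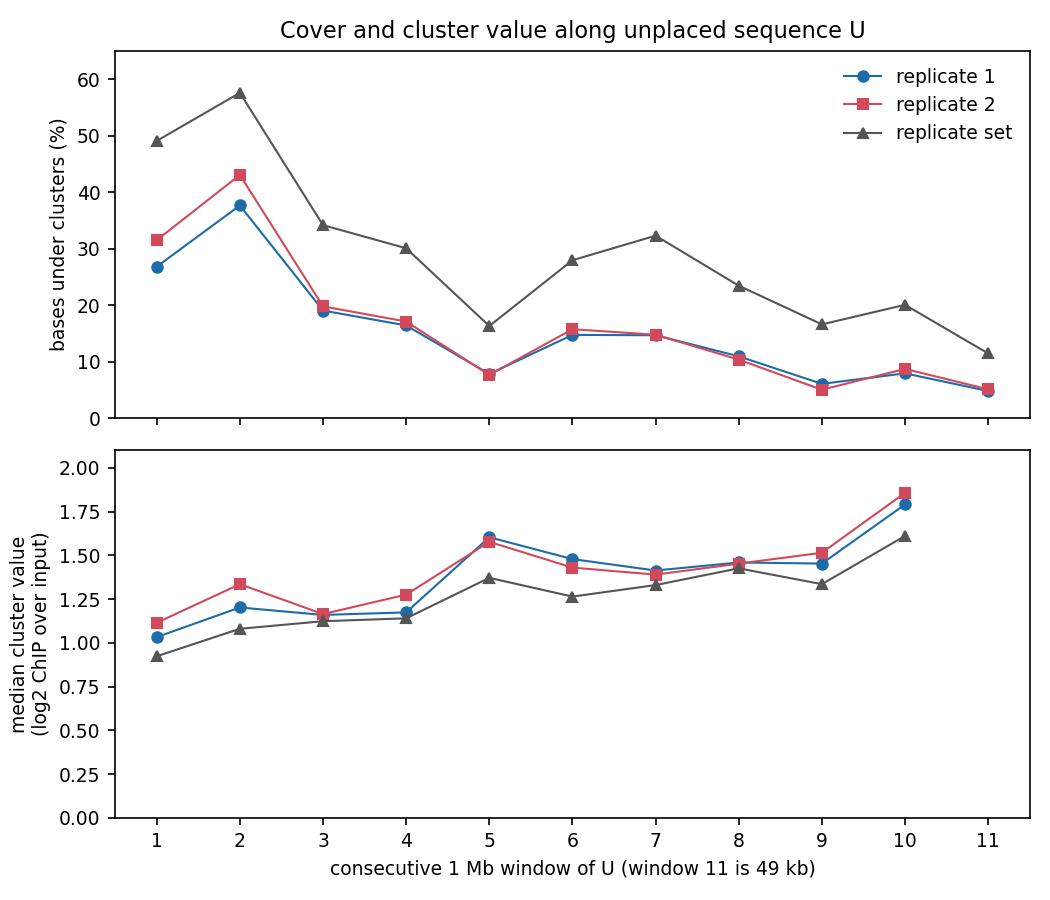
Share of bases under clusters (upper panel, percent) and median cluster value (lower panel, log2 ChIP over input) in consecutive 1 Mb windows of U, for replicate 1, replicate 2 and the replicate-set list. Cover is highest in windows 1 and 2, and the medians of windows 5 to 10 lie above those of windows 1 to 4 in each list. The lower panel leaves out window 11, which holds 3 clusters of the replicate-set list.

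On a finer scale of 100 kb the window from 1300001 to 1400000 was the most covered in each list, with 75.0% in replicate 1, 74.9% in replicate 2 and 81.6% in the replicate-set list. The median window had 12.1% and 12.5% in the replicates. 4 of the 100 windows were at least 50% covered in both replicates, and 1 window had no cover in either. The longest stretch without a cluster ran over 201.8 kb in replicate 1, from 4280551 to 4482315, and over 184.5 kb in replicate 2, from 639780 to 824307. In the replicate-set list it ran over 122.6 kb, from 694618 to 817239. Assembly gaps within U were not removed and are counted as bare sequence.

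The 5 widest clusters lay mostly in that densely covered start. The widest spanned 31.6 kb from 1162312 to 1193943, with a log2 value of 1.51. It was 98.0% covered by 1 cluster of replicate 1 at 1.52 and 97.9% covered by 4 clusters of replicate 2, the largest overlap among them at 1.53. The cluster from 301856 to 326838 (25.0 kb) had 1.41, with 1.33 in replicate 1 and 1.58 in replicate 2. The cluster from 1958408 to 1981641 (23.2 kb) had 1.63, with 1.88 and 1.91. In the replicates 1 to 4 separate calls made up each of these 5 domains. Where there were several, the replicate value given is that of the call with the largest overlap alone. From 1317401 to 1336606 (19.2 kb) the value was 1.30, with 1.28 and 1.38. The fifth, from 5615978 to 5635037 (19.1 kb), had 1.15, with 1.48 in replicate 1 and 1.08 in replicate 2.

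The clusters of the replicates were then compared by position. On U they shared 1.30 Mb of the 2.07 Mb under clusters of either, or 62.7%. The corresponding share was 79.7% on the heterochromatin scaffolds and 55.5% on the large autosome arms. Of the 527 clusters of replicate 1 on U, 416 (78.9%) overlapped a cluster of replicate 2 by at least 1 bp, against 69.4% of the list. Of the 545 of replicate 2, 402 (73.8%) overlapped one of replicate 1, against 74.2% of the list. Among the full windows agreement by base ran from 76.2% in window 2, the most covered, to 38.9% in window 9, the least covered. Between these it did not follow cover, with 58.1% in window 1, the second most covered, and 59.4% in window 5. Window 11, with 1 cluster in each replicate, had 91.2%.

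In the replicate lists, pooled over U, the clusters found in a single replicate were, at the median, not weaker than the shared ones. By the replicate-set value the order was the other one, with 1.07 for those found in 1 replicate and 1.18 for those found in both. In replicate 1 the median log2 value was 1.48 for clusters that no cluster of replicate 2 overlapped and 1.24 for the others. In replicate 2 it was 1.38 against 1.33. On the heterochromatin scaffolds the unshared clusters had 1.01 against 1.19 in replicate 1 and 1.10 against 1.26 in replicate 2, and on the large autosome arms 0.57 against 0.69 and 0.57 against 0.67. The unshared clusters of U were narrow, with a median width of 1608 bp and 1581 bp, against 2784 bp and 2912 bp for the shared ones.

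Where a cluster of one replicate overlapped a single cluster of the other and the reverse held, their values could be set side by side. There were 348 such pairs on U. Across them Pearson's r was 0.85 and Spearman's rho 0.84. The points are clusters of 2 libraries of one antibody on one sequence, and are not independent replicates. Replicate 2 was higher in 215 pairs and replicate 1 in 133, with a median difference of -0.07 (replicate 1 minus replicate 2). The values lay within 0.5 of each other in 319 pairs (91.7%) and more than 1 apart in 2.

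**Figure D3:**
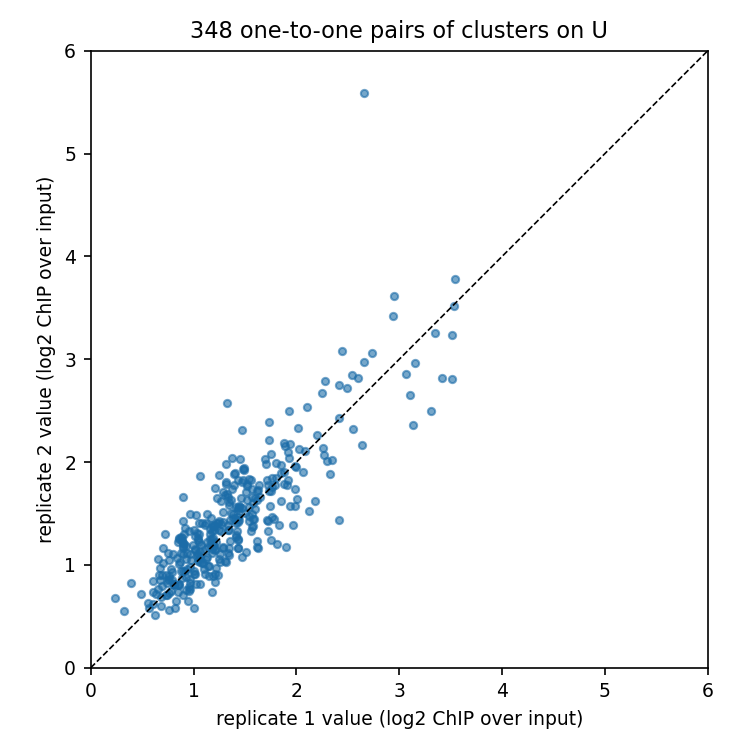
Log2 value of ChIP over input in replicate 1 (horizontal axis) and replicate 2 (vertical axis) for the 348 one-to-one pairs of overlapping clusters on U, with the line of equal values dashed. Points follow the line (Pearson's r 0.85), and 1 pair stands far off it at 2.66 in replicate 1 and 5.59 in replicate 2.

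The pair farthest from the line was the last cluster on U. From 10035139 to 10037675 (2.54 kb) its value was 2.66 in replicate 1 and 5.59 in replicate 2, a 6.33-fold and a 48.1-fold enrichment, and 3.59 in the replicate-set list. The value in replicate 2 was the highest of that whole list. Without this pair r was 0.88. At the other end of U, the cluster nearest the start, from 9889 to 14605 (4.72 kb), had close values of 1.01 and 1.15, and 1.00 in the replicate-set list.

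The 12 clusters with the highest replicate-set value among those found in both replicates had log2 values from 2.90 to 3.74. Their widths ran from 2206 bp to 9462 bp, and most were narrower than the median of 3879 bp for all U clusters found in both replicates. Of the 12, 9 lay beyond 6 Mb on U. The highest, from 9552098 to 9555061 (2.96 kb), had 3.54 in replicate 1 and 3.78 in replicate 2 (mean 3.66 ± 0.17, SD, n = 2). From 7843159 to 7846405 (3.25 kb) the values were 3.52 and 3.24. From 6671165 to 6674682 (3.52 kb) they were 3.54 and 3.52, the closest agreement of the 12. Read as ratios, the enrichments of these 3 sites in the replicates ran from 9.43-fold to 13.7-fold.

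A further 5 of the 12 lay beyond 8 Mb. From 9803733 to 9806739 (3.01 kb) the values were 3.35 in replicate 1 and 3.26 in replicate 2. From 9501349 to 9503899 (2.55 kb) they were 2.94 and 3.42. From 9526774 to 9529586 (2.81 kb) they were 2.95 and 3.62, so both of these neighbours were higher in replicate 2. From 8411178 to 8415456 (4.28 kb) the values were 3.15 and 2.97. From 8776807 to 8779991 (3.19 kb) they were 3.52 and 2.80, a mean of 3.16 ± 0.50 (SD, n = 2), the widest spread of the 12 after the last cluster on U.

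The remaining 3 lay earlier. From 2179748 to 2181953 (2.21 kb) the values were 3.42 and 2.82, and clusters of the replicates covered 59.1% and 60.6% of the region, the lowest of the 12. From 5683526 to 5690485 (6.96 kb) they were 3.07 and 2.86. From 4021478 to 4030939 (9.46 kb), the widest of the 12, they were 2.73 and 3.07. With 2 values each, differences between these sites were not tested.

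**Figure D4:**
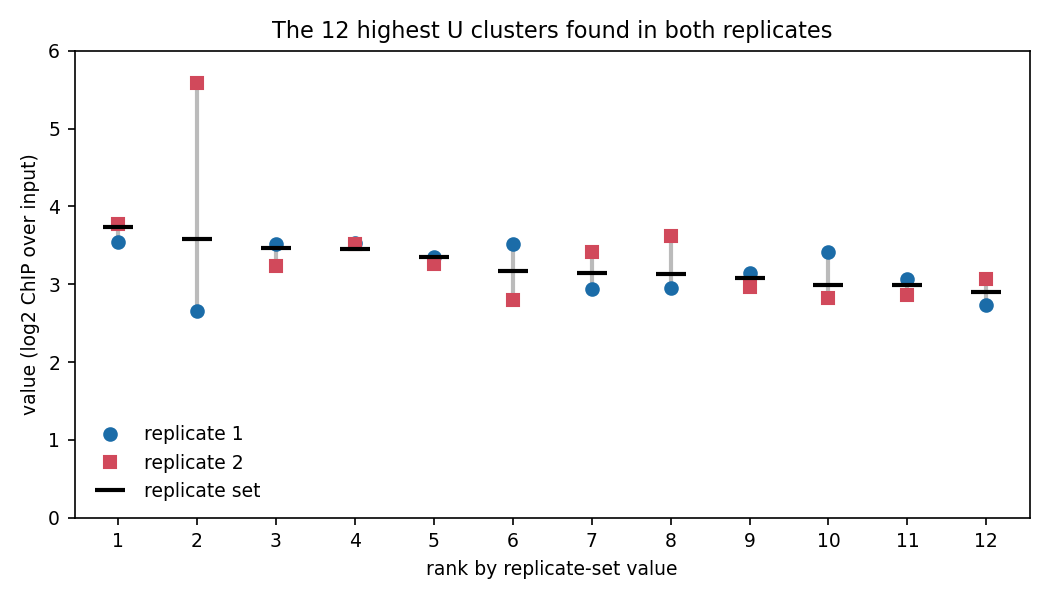
Log2 value of ChIP over input in replicate 1, replicate 2 and the replicate-set list for the 12 U clusters with the highest replicate-set value among those found in both replicates, ranked by that value; grey bars join the replicates. The replicate-set values lie between 2.90 and 3.74. Rank 2 has by far the longest bar, from 2.66 to 5.59.

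Each cluster of the replicate-set list was sorted by its support in the replicates. On U, 363 of the 1082 (33.5%) overlapped clusters of both replicates, against 30.7% of the list. A further 223 (20.6%, against 25.3%) overlapped those of 1 replicate, 95 of them in replicate 1 and 128 in replicate 2. The other 496 (45.8%, against 44.1%) overlapped none. The shares are near those of the whole list. On the heterochromatin scaffolds 64.0% were found in both replicates and 20.3% in neither, and on the large autosome arms 27.0% and 46.3%. Those found in both made up 59.6% of the summed width of the U clusters, with a median width of 3879 bp against 1392 bp for those found in neither. Since all 3 lists come from the same libraries, these shares are not independent evidence.

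Pooled over U, the clusters without support in a replicate had the higher median. Those found in neither replicate had a median log2 value of 1.37, against 1.18 for those found in both and 1.07 for those found in 1. Outside U the median was 0.42 for those found in neither and 0.66 for those found in both, so the second group was the higher there. On the heterochromatin scaffolds alone the medians were 0.93 and 1.14. Within stretches of U the gap was smaller, at 1.12 for neither against 1.04 for both in the 4 Mb at the start and 1.51 against 1.48 in the rest. Of the 10 full windows, 6 had the higher median in clusters found in neither and 4 (windows 1, 2, 5 and 10) in clusters found in both. Of the 186 U clusters at 2 or more, 136 were found in neither replicate and 33 in both. Outside U the split of the 120 such clusters was 71 and 41. As shares, clusters at 2 or more were 27.4% of the U clusters found in neither and 9.09% of those found in both. On the heterochromatin scaffolds the shares were 17.6% and 3.46%, so an excess of high values among unsupported clusters was not particular to U. Of the 10 highest values on U, 8 were found in neither replicate. The difference between U and the rest of the list was not tested.

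Width moved with this result. No U cluster narrower than 1301 bp, the narrowest width in either replicate list, was found in both replicates, and 220 of these 236 (93.2%) were found in neither. Outside U the share was nearly the same, 2503 of 2715 (92.2%), and none was found in both. The 236 narrow clusters had a median value of 1.55. Without U clusters under 2 kb, 66.8% were found in both replicates and 10.9% in neither. Without values used by 3 or more clusters the share found in neither was 29.0%. Among clusters 2000 to 2999 bp wide, U clusters found in neither had a median of 1.30 (49 clusters) and those found in both 1.26 (98 clusters), against 0.43 and 0.56 outside U. Among those 3000 to 4999 bp wide the order was the other one on U, with 0.92 for neither (9 clusters) and 1.20 for both (143 clusters). From 5000 bp upward no U cluster was found in neither replicate, and 115 of 116 were found in both. The part that width plays in the values was not tested.

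**Figure D5:**
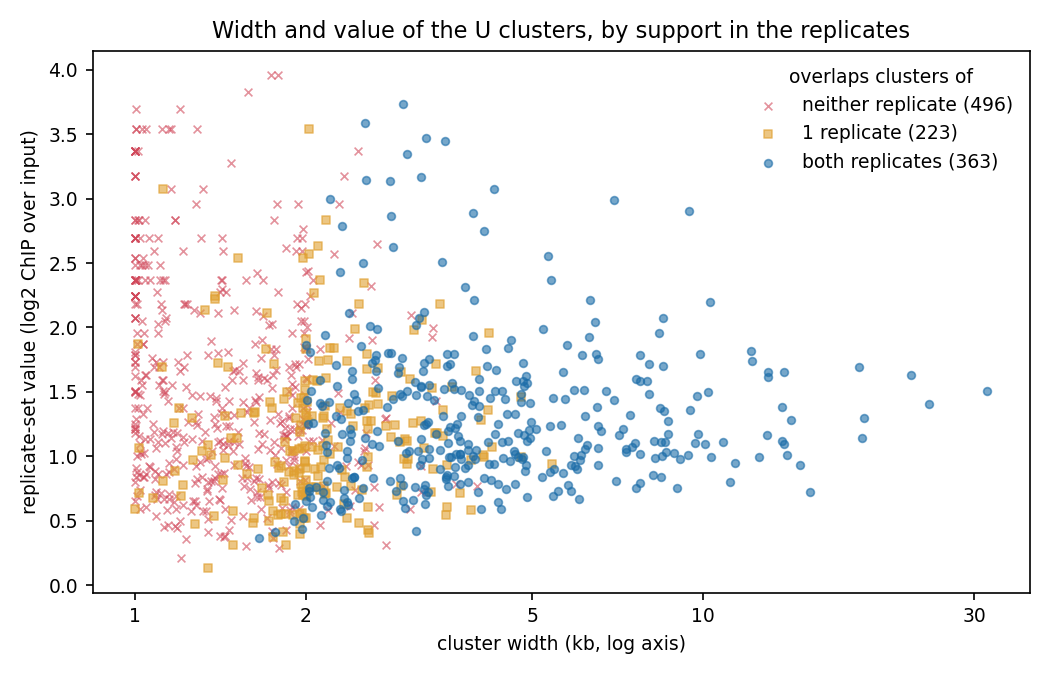
Width (horizontal axis, kb, log scale) and replicate-set value (vertical axis, log2 ChIP over input) of the 1082 U clusters, marked by whether they overlap clusters of neither, 1 or both replicates. Clusters found in neither fill the left side up to 3.96, and clusters found in both begin near 1.65 kb and reach 31.6 kb.

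Many high values on U were exact repeats of each other. A value used by 3 or more clusters of the replicate-set list was carried by 376 U clusters (34.8%, against 25.3% of the list), and by 127 of the 186 at 2 or more (68.3%). The matching share at 2 or more outside U was not worked out, so whether 68.3% is particular to U cannot be said. By support it was carried by 291 of the 496 found in neither replicate (58.7%), 69 of the 223 found in 1 (30.9%) and 16 of the 363 found in both (4.41%). Over the whole list the shares were 41.4%, 21.7% and 5.09%, so they fell with support there too. The most frequent value on U was 2.37, held by 19 clusters with a median width of 1063 bp, 18 of them found in neither replicate. Next came 1.37 with 14 clusters and 2.69 with 12. The value 3.54 occurred 9 times, 8 of them in clusters found in neither replicate.

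Part of the values lay on whole multiples of 1 ratio. Read as linear ratios, 84 U clusters (7.76%, against 2.42% of the list) were whole multiples of 1.29, the commonest ratio of the list, to within 1e-06, and 75 of the 84 were found in neither replicate and none in both. In the whole list 205 of 278 were found in neither and 6 in both. Among clusters at 2 or more the whole multiples made up 33.3% on U and 30.1% over the list. The list share includes U, which held 62 of these 92 clusters. On the heterochromatin scaffolds the share was 21.3% and on the large autosome arms 28.0%. Other frequent values on U lay on fractional multiples and are not among the 84. Such values were 2.18 at 3.5 times that ratio (10 clusters) and 2.83 at 5.5 times (9 clusters), none of them found in both replicates. The 5 highest U clusters found in neither replicate lay on 12, 12, 11, 10 and 10 times that ratio. They were the clusters from 4421999 to 4423734 and from 8897959 to 8899746 (both 3.96), from 8833408 to 8834987 (3.83), from 3111431 to 3112630 and from 6037393 to 6038397 (both 3.69). Their widths were between 1005 bp and 1788 bp. The minimum width of the list, 1001 bp, was held by 56 of the 1082 U clusters, of which 51 carried a repeated value and 55 were found in neither replicate. In the whole list it was held by 230 of 11471, of which 190 carried a repeated value and 226 were found in neither. Lack of support and repeated values were thus common at this width over the whole list too. Clusters of this width were more frequent on U, and their median value was 2.25 there and 0.51 over the list. On the heterochromatin scaffolds it was 2.18 (9 clusters) and on the large autosome arms 0.45 (127 clusters). A high median at this width was therefore not particular to U. None of the 12 highest clusters found in both replicates had a value that any other cluster of the list shared. The number of reads behind either kind is unknown.

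For the 363 U clusters found in both replicates, the replicate-set value was compared with the values of the replicate clusters that overlapped it most. It lay between both replicates in 199, below both in 158 and above both in 6. The medians were 1.18 in the replicate-set list, 1.28 in replicate 1 and 1.36 in replicate 2. Most of the 363 matched a single cluster of each replicate (314 in replicate 1 and 316 in replicate 2), and clusters of the replicates covered a median of 82.3% and 86.2% of their width.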

How the data were processed

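ChIP-seq of Su(var)3-7 was deposited as 3 lists of regions on FlyBase release 5, per the file headers. The aligner was Bowtie 0.12.7 according to the submitters' processing notes. Neither the region caller and its thresholds nor the way of combining replicates is given in the sources used here. The authors' deposited value per region was taken as log2 (ChIP over input), because repeated values lay exactly 1 apart. No value was rescaled.

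Cover is the percent of the bases of a sequence (length per the file headers) under at least 1 cluster. Overlap needs at least 1 bp. Exact repeats were matched to 9 decimals. Gaps and repeats were not masked. Functions were tested on simulated data and run with Python 3.11.15, pandas 2.3.3 and numpy 2.4.6. No test over clusters was made.

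The regions named were the 12 highest U clusters found in both replicates, the 5 widest, the 5 highest found in neither, the first and last by position, and the most and least covered windows. The 100 kb windows, the longest bare stretches, the width classes and the whole-multiple check were added after seeing values. The members and lists were chosen with earlier results of these data known.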

Additional observations from a re-analysis of the deposited data

How the results depend on the processing

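No paired analysis was possible because the results come from no test; folds and differences between classes were taken within each replicate list. Cover of U was 13.5% without clusters under 2 kb, 14.6% without values used by 3 or more clusters and 30.6% in the replicate-set list, and 16.1% to 17.3% when either replicate was left out. The fold over the large autosome arms stayed above 1, at 1.38 to 1.69 with a replicate left out. Among clusters at or above their list's median value it was 2.61, a rise built into that filter. The difference of medians stayed positive: 0.41 among clusters at or above the median, 0.60 without clusters under 2 kb, 0.64 without repeated values, 0.81 in the replicate-set list, 0.10 against the heterochromatin scaffolds, and 0.67 to 0.70 with a replicate left out. The share of U clusters found in both replicates was 29.3% when each replicate had to cover 50% of the cluster, 66.8% without clusters under 2 kb and 49.2% without repeated values. Without clusters narrower than 1301 bp, a choice added after seeing the data, it was 42.9%. The share found in neither was 10.9% without clusters under 2 kb, 29.0% without repeated values, 51.8% at or above the median value of U and 32.6% without clusters narrower than 1301 bp. The overlap of the replicates was 61.1% at or above the median, 67.7% without clusters under 2 kb, 63.5% after merging and 59.6% without repeated values. The count at 2 or more was 33 among clusters found in both replicates, 59 without repeated values and 56 without clusters under 2 kb. Each of these 3 choices keeps only part of the clusters, so a lower count was built in. Beyond what a filter builds in, the cause of the shifts in this section was not tested. In 11 other settings values moved by less than the replicate SD or stayed within a binomial interval, which treats clusters as independent. Leaving out a replicate is not counted, since with 2 replicates it moves a mean by less than their SD by construction. Depth is unknown, so how many reads support a narrow high cluster cannot be stated.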

Other observations

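Of the replicate clusters on U, 3 of replicate 1 and 3 of replicate 2 overlapped no cluster of the replicate-set list. Neighbouring clusters of the replicate-set list on U were a median of 3333 bp apart, and 22.8% of these gaps were under 1 kb. On the large autosome arms the median gap was 2762 bp and 28.8% were under 1 kb.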
